A study of Mus musculus with 6 samples.

Results

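Genes of the vascular endothelial growth factor (VEGF) and oxygen-sensing pathways were followed through 6 RNA-seq libraries of mouse peritoneal macrophages. The genes were Vegfa, Vegfb, Flt1, Nrp1, Hif1a, Epas1, Hif1an, Egln1, Egln2 and Egln3, and all 10 were found by name among the 54532 genes of the expression table. The genes were chosen by their FPKM in these same libraries and by their place in 1 pathway, and Vegfa had been seen to differ in opposite directions between Model and Control and between MUS and Model. Levels and differences of the 10 genes are therefore given as descriptions, without p-values.

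The cells came from wild-type male C57BL/6J mice aged 6 to 8 weeks, lavaged 5 days after intraperitoneal 3% thioglycolate, which draws macrophages into the peritoneal cavity. The Control cells were untreated. The Model cells received 500 ng/mL lipopolysaccharide (LPS), a bacterial product that activates Toll-like receptor signalling, for 5.5 h and then 2 mM ATP for another 0.5 h, a standard way to switch on the NLRP3 inflammasome. The MUS cells were given LPS and ATP likewise, plus 50 μM muscone, the odorous ketone of musk, added 5 h after LPS and 0.5 h before ATP. Each group had 2 libraries, labelled batch 1 and batch 2 like the replicate numbers. Neither the labels nor the study's methods say whether the libraries came from separate mice or from pooled cells, so p-values measure only the spread between these libraries. No group received muscone without LPS and ATP, or LPS without ATP.

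When oxygen is plentiful, the prolyl hydroxylases encoded by Egln1, Egln2 and Egln3 mark the α subunits of the hypoxia-inducible factors (HIFs) for destruction through the von Hippel-Lindau ubiquitin ligase. The asparagine hydroxylase encoded by Hif1an, called factor inhibiting HIF, blocks their coactivators. Hif1a and Epas1 encode the α subunits HIF-1α and HIF-2α, and Vegfa, the main growth factor of blood vessels, is a classical HIF target. Vegfb encodes a related ligand, Flt1 the receptor VEGFR1 that binds both ligands, and Nrp1 the coreceptor neuropilin-1. In macrophages, LPS is known to induce Hif1a transcription without hypoxia. These libraries measure RNA, and most oxygen control of HIF-α acts on protein.

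The sequences just upstream of the start sites of Vegfa, Vegfb and Hif1a are shown because Vegfa and Vegfb were lower together in the Model libraries and separated in the MUS libraries, while Hif1a was higher in both. The letters are RefSeq's, build GRCm38.p6, 250 bases before the first start site in each case and read 5′ to 3′ on the gene's strand. Capitals mark the hypoxia-response core, ACGTG or GCGTG, on either strand. The Vegfa window is chr17:46032378-46032627 on the minus strand, the Vegfb window chr19:6987652-6987901 on the minus strand, and the Hif1a window chr12:73907617-73907866 on the plus strand.
Vegfa: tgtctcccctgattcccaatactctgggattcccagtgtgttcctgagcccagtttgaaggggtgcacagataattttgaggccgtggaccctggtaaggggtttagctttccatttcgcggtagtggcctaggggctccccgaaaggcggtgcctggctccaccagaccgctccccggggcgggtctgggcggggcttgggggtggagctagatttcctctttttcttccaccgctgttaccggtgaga
Vegfb: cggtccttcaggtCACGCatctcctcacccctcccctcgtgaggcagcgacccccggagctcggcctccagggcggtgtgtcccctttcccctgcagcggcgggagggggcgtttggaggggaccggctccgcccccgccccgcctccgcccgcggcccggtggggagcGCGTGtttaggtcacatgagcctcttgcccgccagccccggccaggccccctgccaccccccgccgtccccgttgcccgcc
Hif1a: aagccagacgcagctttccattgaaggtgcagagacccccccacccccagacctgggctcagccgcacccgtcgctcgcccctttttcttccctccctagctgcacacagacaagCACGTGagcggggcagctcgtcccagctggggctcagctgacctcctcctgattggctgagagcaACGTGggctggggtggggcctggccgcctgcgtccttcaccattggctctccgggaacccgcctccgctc
The Vegfa window held no core and 2 matches of GGGCGG, the letters of the Sp1 core, counted on both strands. The window before the second annotated Vegfa start site, chr17:46025164-46025413, held 2 hypoxia-response cores. It lies inside the Vegfa gene, which spans chr17:46016993-46032369. The Vegfb window held 2 cores and 4 GGGCGG matches. The Hif1a window held 3 core matches, of which an overlapping pair came from the palindrome CACGTG read on both strands, and 0 GGGCGG matches. RefSeq windows were matched for 9 of the 10 genes, in 11 windows, and 8 of the 9 genes had a core in at least 1 window. Vegfa is among the 8 only through the window inside the gene. The only Hif1a window also lies inside the listed span of its gene, chr12:73901375-73947530, and so does the only Nrp1 window in its own. The second Egln2 window lies inside its gene as well, and the windows of Egln1 and Hif1an overlap the listed start of theirs. Counted by window, 9 of the 11 held a core. Among 32851 promoter windows of the same 250 bases, 38.6% held ACGTG or GCGTG and 32.7% held GGGCGG. These shares were not adjusted for G and C content, which was 48% to 86% in the 11 windows, so nothing is read from the difference. Epas1 was not matched. A match describes the letters in these windows and says nothing of HIF binding.

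The libraries held 15526321 to 17135442 fragments on genes, recovered from the deposited values of fragments per kilobase and library size (FPKM). Genes with at least 1 fragment numbered 24906 in Model replicate 1 and 17406 to 19200 in the other libraries. Its FPKM summed to 391736, against 233863 to 323851 in the others. The cause was not tested, and Model replicate 1 enters every Model mean. A count of 3 fragments on a gene of 1 kb corresponded to 0.131 to 0.213 FPKM, a floor that covers counting error only. All 8 macrophage markers, such as Adgre1 and Csf1r, had a mean of at least 1 FPKM, and their summed level was 9574 to 14283 FPKM. Of 11 endothelial markers, 1 reached that mean, their sum was 2.71 to 5.12 FPKM, of which Vwf made up 36.7% to 84.5%, and Cldn5 was at 0 in every library. Neutrophil, mast cell, B cell and T cell markers reached it for 0 of 7, 0 of 5, 0 of 5 and 0 of 5 genes, eosinophil markers for 1 of 4, and fibroblast and mesothelial markers for 4 of 8. In bulk samples, fewer cells of a type and less RNA per cell cannot be told apart.

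The Control libraries differed from each other in LPS-response genes. Il1b, the gene of interleukin-1β, was at 0.550 FPKM in Control replicate 1 and 34.2 FPKM in Control replicate 2. Tnf, a rapid inflammatory cytokine gene, was at 8.62 and 183 FPKM, and Nlrp3 at 7.20 and 52.5 FPKM. Replicate 2 lay on the Model side of replicate 1 for 9 of the 10 genes, and for 75.6% of the 9794 genes tested. Control replicate 1 enters both differences behind these shares, so its own spread tends to raise them, and nothing is read from them. Because the Control libraries differed in Il1b, Tnf and Nlrp3, fitted values without a Control library are given for the 6 members called in Model vs. Control. For other genes they are given where a call in that comparison was lost or gained by a gene named here, and not for every list gene whose call changed. All 6 LPS-response genes checked rose in Model vs. Control and in MUS vs. Control (limma, adjusted over all genes tested). Il1b rose by 9.67 ± 1.26 (SE) on the log2 scale in Model vs. Control (limma adjusted p = 0.00488). It was at 7.42 without Control replicate 1 and 11.92 without Control replicate 2, and called in both.

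These counts of LPS-response genes also rested on single libraries, as did the number of all genes called. In Model vs. Control the 6 called became 2 without Model replicate 1, 3 without Model replicate 2 and 3 without either MUS library, and remained at 6 without either Control library. In MUS vs. Control they became 1 without MUS replicate 1, 3 without MUS replicate 2, 4 without either Model library and 5 without Control replicate 1. With no filter on low values 1 was called in each of the 2 comparisons. All 6 were at an unadjusted p under 0.05 in every one of these fits.

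**Figure D1:**
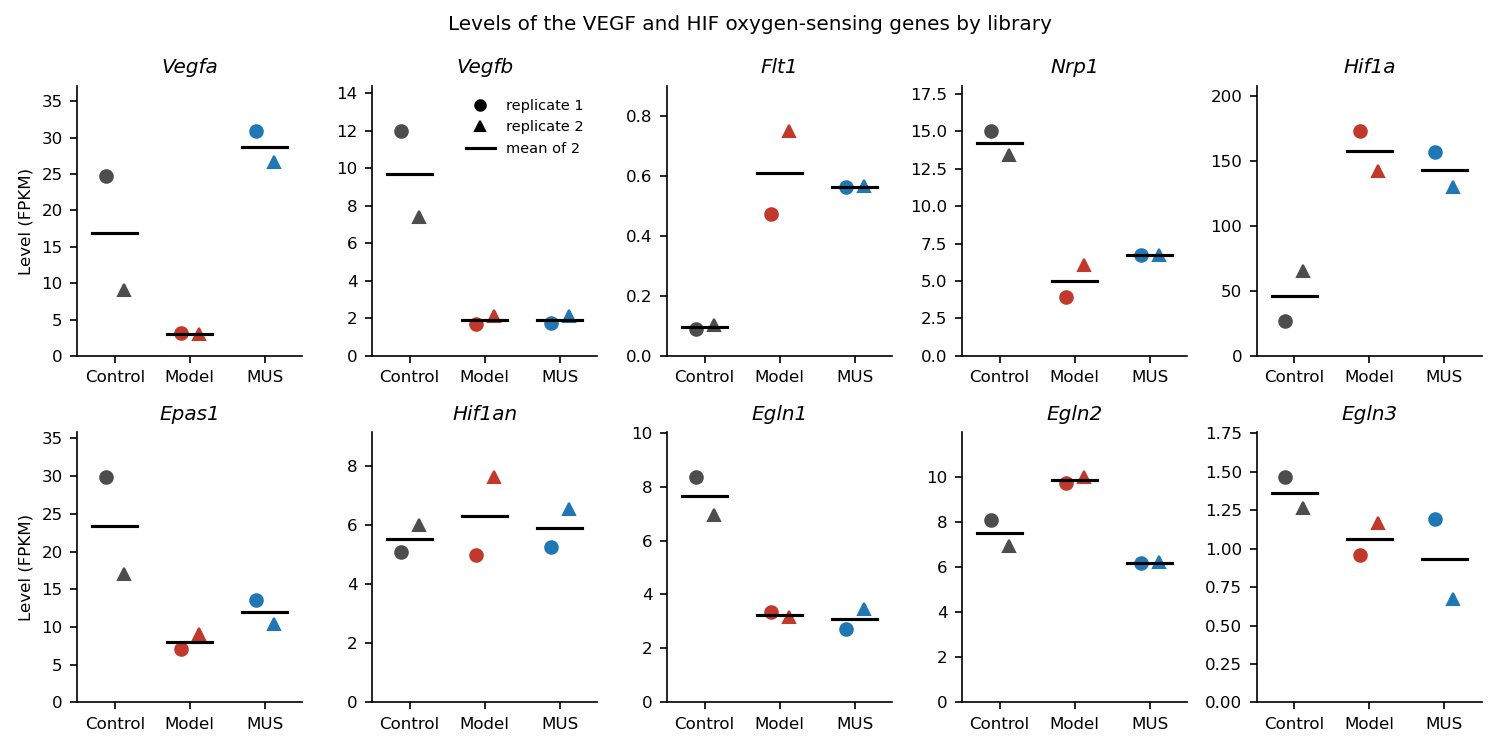
FPKM of the 10 genes (vertical axes from 0, a separate scale for each gene) in Control, Model and MUS, with a point per library and a line at the mean of 2. Vegfa lies at 3.09 and 2.95 FPKM in Model and at 30.9 and 26.6 FPKM in MUS, whereas the Vegfb libraries of Model and MUS overlap.

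Among the ligands, Vegfa (ENSMUSG00000023951, chr17:46016993-46032369, minus strand) was at 24.7 and 9.03 FPKM in Control replicates 1 and 2, at 3.09 and 2.95 FPKM in Model, and at 30.9 and 26.6 FPKM in MUS. Both Model libraries lay below both Control libraries, and on the deposited scale both MUS libraries lay above every other library. These levels rested on 2423 and 885 fragments for Control, on 187 and 196 for Model and on 2001 and 1852 for MUS. Control replicate 1 held 15742538 fragments on genes, against 16222724 and 16481372 in MUS replicates 1 and 2. By share of these fragments, Vegfa in Control replicate 1 lay above both MUS libraries. The means were 16.9 ± 11.1 (SD, n = 2), 3.02 ± 0.0990 and 28.8 ± 3.03 FPKM. Mean Vegfa was 5.58-fold lower in Model than in Control and 9.51-fold higher in MUS than in Model. On the deposited scale, the MUS mean was 1.70 times the Control mean, and Control replicate 1 lay close below MUS replicate 2.

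On the log2(FPKM + 1) scale, the fitted difference of Vegfa was -1.998 ± 0.42 (SE) in Model vs. Control, 2.88 ± 0.42 in MUS vs. Model and 0.89 ± 0.42 in MUS vs. Control. The value in MUS vs. Model had rank 3 from the top among the 9794 genes tested and rank 1 among the 8648 protein-coding genes. Vegfa was chosen with this difference known, so nothing is read from its ranks. Within batch 1 the Model vs. Control difference was -2.65 and within batch 2 it was -1.34. The MUS vs. Model difference was 2.96 and 2.80 in the same batches. Without Control replicate 1, Model vs. Control was -1.32 and MUS vs. Control was 1.57, both called. Without Control replicate 2, these were -2.68, called, and 0.21, not called, so the distance between MUS and Control depended on which Control library was kept.

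Vegfb (ENSMUSG00000024962, chr19:6982473-6987651, minus strand) was at 11.99 and 7.41 FPKM in Control, 1.72 and 2.13 FPKM in Model, and 1.77 and 2.11 FPKM in MUS. Both treated groups lay below Control, and Model and MUS overlapped. The mean was 5.03-fold lower in Model than in Control, and the MUS mean was 1.01 times the Model mean. The fitted difference was -1.84 ± 0.26 (SE) in Model vs. Control and 0.01 ± 0.26 in MUS vs. Model. The Model vs. Control difference was -1.53 without Control replicate 1 and -2.15 without Control replicate 2. Vegfa and Vegfb, lower together in Model, thus had unlike levels in MUS.

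The ratio of Vegfa to Vegfb within a library does not depend on how libraries are scaled. The Control libraries had 2.06 and 1.22, the Model libraries 1.80 and 1.39, and the MUS libraries 17.4 and 12.6. The Control and Model ratios overlapped, and both MUS ratios lay above all others.

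Of the receptors, Nrp1 (ENSMUSG00000025810, chr8:128358604-128503363, plus strand) was at 15.01 and 13.4 FPKM in Control, 3.90 and 6.07 FPKM in Model, and 6.73 and 6.70 FPKM in MUS. Control lay above both treated groups, and both MUS libraries lay above both Model libraries. The mean was 2.85-fold lower in Model than in Control. Its fitted difference was -1.37 ± 0.25 (SE) in Model vs. Control, 0.39 ± 0.25 in MUS vs. Model and -0.98 ± 0.25 in MUS vs. Control. The Model vs. Control difference was -1.29 and not called without Control replicate 1, and -1.44 and called without Control replicate 2.

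Flt1 (ENSMUSG00000029648, chr5:147561604-147726011, minus strand) was at 0.0907 and 0.104 FPKM in Control, 0.472 and 0.750 FPKM in Model, and 0.563 and 0.565 FPKM in MUS. Both treated groups lay above Control, and Model and MUS overlapped. The Model mean was 6.29-fold that of Control, from 28 and 32 fragments in Control and 90 and 157 in Model. Flt1 had a mean below 1 FPKM over the 6 libraries, so it did not enter the fit. The summed endothelial markers were at 5.12 and 4.03 FPKM in Control, 2.71 and 3.48 FPKM in Model, and 3.20 and 3.76 FPKM in MUS, lower where Flt1 was higher. That order came from Vwf, at 4.32 and 3.41 FPKM in Control and 0.992 to 2.47 FPKM in the treated libraries. The other 10 markers summed to 0.808 and 0.623 FPKM in Control, 1.71 and 1.40 FPKM in Model, and 1.48 and 1.29 FPKM in MUS, higher where Flt1 was higher. Among them Kdr, the VEGFR2 gene, was at 0.475 and 0.402 FPKM in Control, 0.596 and 0.908 FPKM in Model, and 0.894 and 1.002 FPKM in MUS. The part of endothelial RNA in the Flt1 values was not tested.

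Hif1a (ENSMUSG00000021109, chr12:73901375-73947530, plus strand) was the most abundant of the 10 genes per length in every group mean. It was at 27.2 and 65.4 FPKM in Control, 173 and 142 FPKM in Model, and 157 and 130 FPKM in MUS. All 4 treated libraries lay above both Control libraries, and Model and MUS overlapped. The mean was 3.41-fold higher in Model than in Control. The fitted difference was 1.87 ± 0.44 (SE) in Model vs. Control, -0.14 ± 0.44 in MUS vs. Model and 1.73 ± 0.44 in MUS vs. Control.

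Within batch 1 Hif1a differed by 2.63 between Model and Control on the log2 scale, and within batch 2 by 1.11. Without Control replicate 1 the fitted difference was 1.25 and not called, and without Control replicate 2 it was 2.49 and called. The MUS vs. Control difference was 1.11 and not called without Control replicate 1, and 2.35 and called without Control replicate 2. The antisense gene Gm15283 and the same-strand gene Gm49321 overlap Hif1a. Gm15283 was at 0.0929 and 0.223 FPKM in Control, 0.271 and 1.84 FPKM in Model, and 2.33 and 2.80 FPKM in MUS, and Gm49321 was listed at 0. Of the 50-base stretches of the Hif1a transcripts, 5.74% occurred in another gene, and no source used here says that strand was used in counting.

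Epas1 (ENSMUSG00000024140, chr17:86753907-86833410, plus strand) went the other way. It was at 29.8 and 17.0 FPKM in Control, 7.10 and 9.02 FPKM in Model, and 13.6 and 10.4 FPKM in MUS. The 3 groups did not overlap, with MUS between Model and Control. The mean was 2.90-fold lower in Model than in Control and 1.49-fold higher in MUS than in Model. The fitted difference was -1.39 ± 0.32 (SE) in Model vs. Control, 0.52 ± 0.32 in MUS vs. Model and -0.87 ± 0.32 in MUS vs. Control. Without Control replicate 1 the Model vs. Control difference was -0.996 and not called, and without Control replicate 2 it was -1.77 and called.

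The ratio of Hif1a to Epas1 was 0.911 and 3.85 for Control, 24.4 and 15.8 for Model, and 11.5 and 12.4 for MUS. Every treated library lay above both Control libraries, and both Model libraries lay above both MUS libraries. The Control libraries lay further apart in this ratio, on the log2 scale, than the libraries of either treated group. With 2 libraries in each group, an exact permutation test cannot give a p under 0.333, and none was run on these ratios.

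**Figure D2:**
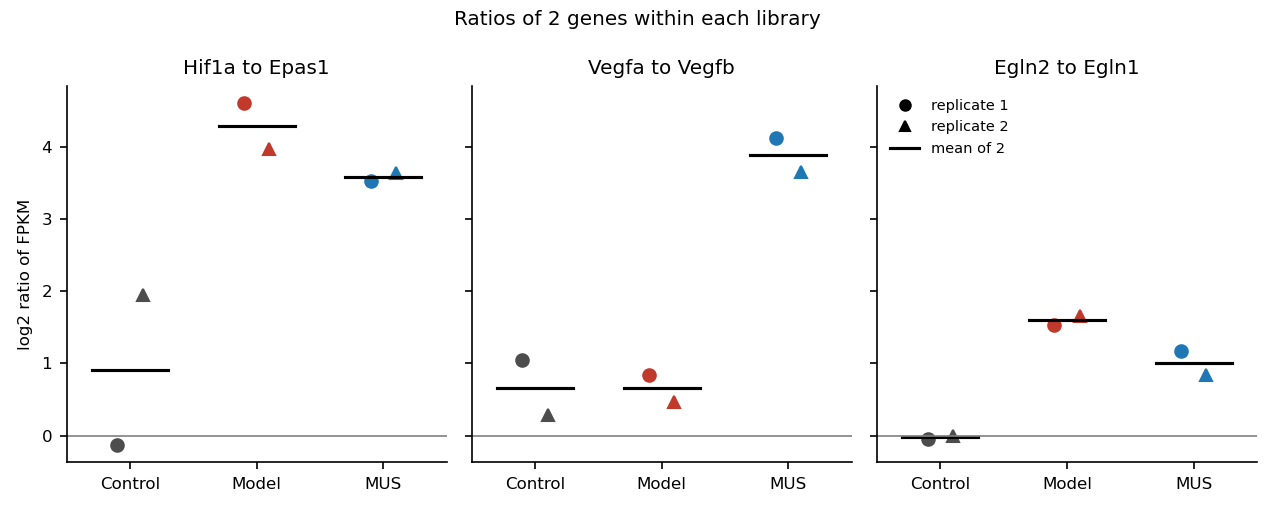
Log2 ratios of FPKM within each library for Hif1a to Epas1, Vegfa to Vegfb and Egln2 to Egln1, with a point per library and a line at the mean of 2 on 1 shared vertical axis. Hif1a to Epas1 is high in both treated groups, and Vegfa to Vegfb lies higher in both MUS libraries than in the other 4.

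The 4 hydroxylase genes lay below 10 FPKM in every library. Egln1, which encodes the main oxygen-dependent prolyl hydroxylase of HIF-1α, was at 8.34 and 6.93 FPKM in Control, 3.35 and 3.16 FPKM in Model, and 2.72 and 3.48 FPKM in MUS. Both treated groups lay below Control, by 2.34-fold for the Model mean, and Model and MUS overlapped. Its fitted difference was -1.02 ± 0.21 (SE) in Model vs. Control and -0.06 ± 0.21 in MUS vs. Model. Egln1 was the member closest to the limit of 1 on the log2 scale among those called in Model vs. Control. It was at -0.90 and not called without Control replicate 1, and at -1.13 and called without Control replicate 2.

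Egln2, the gene of another prolyl hydroxylase of HIF-α, was at 8.09 and 6.93 FPKM in Control, 9.72 and 9.98 FPKM in Model, and 6.17 and 6.24 FPKM in MUS. The 3 groups did not overlap, with Model highest and MUS lowest. Its fitted difference was 0.35 ± 0.21 (SE) in Model vs. Control and -0.59 ± 0.21 in MUS vs. Model. The first of these changed sign under fragment-total scaling (-0.14), and the second did not (-0.58). Egln2 overlaps Cyp2t4 on the other strand, which was at 0.0265 to 0.515 FPKM. The ratio of Egln2 to Egln1 was 0.971 and 1.00 for Control, 2.90 and 3.16 for Model, and 2.26 and 1.80 for MUS.

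Egln3, a prolyl hydroxylase gene that is itself a HIF target in many cells, was the least abundant of the 3 at 1.46 and 1.26 FPKM in Control, 0.958 and 1.16 FPKM in Model, and 1.19 and 0.671 FPKM in MUS. It rested on 29 to 89 fragments per library. Hif1an was at 5.08 and 6.001 FPKM in Control, 4.98 and 7.61 FPKM in Model, and 5.27 and 6.53 FPKM in MUS, and all 3 groups overlapped. The fitted Model vs. Control differences were -0.20 ± 0.24 (SE) for Egln3 and 0.14 ± 0.26 for Hif1an, each smaller than its standard error. That of Hif1an was -0.34 under fragment-total scaling.

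In Control, the order of mean FPKM was Hif1a, Epas1, Vegfa, Nrp1, Vegfb, Egln1, Egln2, Hif1an, Egln3 and Flt1. The libraries of neighbours overlapped from Hif1a down to Nrp1 and from Vegfb down to Egln2. In Model, Vegfa held rank 7, below Egln1, and its libraries lay apart from those of its neighbours. In MUS it held rank 2, below Hif1a and above Epas1, and again lay apart from its neighbours.

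In Model vs. Control, 6 of the 9 genes fitted were called, meaning a limma adjusted p no higher than 0.05 with a log2 fold change beyond 1 in either direction, among 15.1% of all genes tested. Of these, 1 was higher, Hif1a, against 9.5% of all genes, and 5 were lower, Vegfa, Vegfb, Nrp1, Epas1 and Egln1, against 5.56%. In MUS vs. Model none of the 9 was called, nor was any of the 9794 genes (0%). At an unadjusted p under 0.05 there were 825 genes, 256 higher and 569 lower, and limma's voom on the recovered fragments also called 0. With the replicate block, which pairs libraries of the same batch, 4 genes were called in MUS vs. Model and none of them was among the 9. In MUS vs. Control, 3 of the 9 were called, among 20.2% of all genes, with Hif1a higher (11.3%) and Vegfb and Egln1 lower (8.91%). Since the genes were chosen with these values known, nothing is read from the counts.

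The libraries of Model and Control did not overlap for 9 of the 10 genes, as for 61.1% of all genes tested, with 3 of the 10 higher in Model (32.6%) and 6 lower (28.5%). Those of MUS and Model did not overlap for 4 of the 10 (42.1%), with Vegfa, Nrp1 and Epas1 higher in MUS (21.2%) and Egln2 lower (21%). Those of MUS and Control did not overlap for 9 of the 10 (73.3%), with 3 higher in MUS (39.6%) and 6 lower (33.8%). These counts are on the deposited scale. By share of fragments on genes, Vegfa in Control replicate 1 lay above both MUS libraries.

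**Figure D3:**
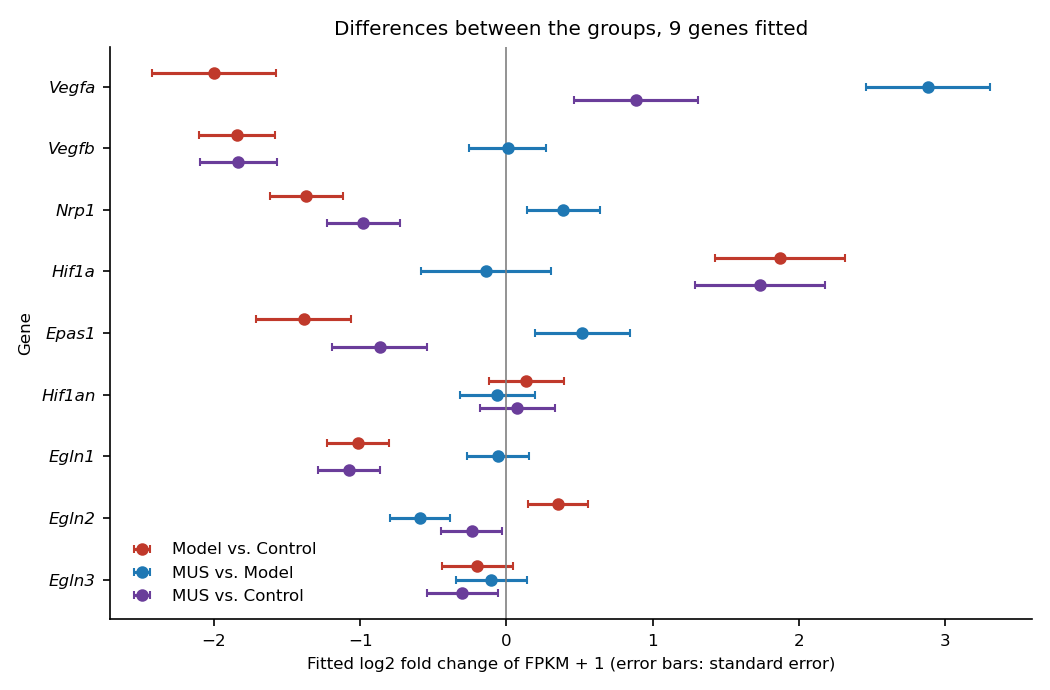
Fitted log2 fold changes of FPKM + 1 (horizontal axis) with standard errors as bars, for the 9 genes fitted and the 3 comparisons between groups of 2 libraries. Vegfa spans from -1.998 in Model vs. Control to 2.88 in MUS vs. Model, while Hif1a, Vegfb and Egln1 lie near 0 in MUS vs. Model.

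The number of the 9 genes called in Model vs. Control depended on the filter and on the libraries fitted, as did that of all genes. Over all genes, 1475 of 9794 were called as reported, 260 of 30192 with low genes kept and 797 of 9794 with only the Model and Control libraries fitted. The number over all genes also fell without Control replicate 1, a Model library or a MUS library. The losses below are therefore not particular to the 9 genes. When low genes were kept in the fit, limma called 0 of the 10, with 7 at an unadjusted p under 0.05, and with only the Model and Control libraries fitted 2 of the 9 were. Without Control replicate 1 it was 2 in place of 6, without Model replicate 1 it was 1, without Model replicate 2 it was 2, and without either MUS library, which lends its spread to the fit, it was 2. Without Control replicate 2 it remained at 6. In MUS vs. Control, the 3 calls became 0 without MUS replicate 1 (limma, with 4 at an unadjusted p under 0.05), 1 without MUS replicate 2, 2 without Control replicate 1 and 4 without Control replicate 2. With low genes kept 1 was called there, Vegfb, among 456 of 30192 genes, against 1980 of 9794 as reported. Without Control replicate 1, Vegfa (1.57) was called besides Vegfb, and Hif1a and Egln1 were not. The number of all genes called in MUS vs. Control fell or rose in the same fits as that of the 9. Among the scalings, Hif1a was not called in Model vs. Control with quantile normalization (1.10) or with rescaling without mitochondrial and the 20 highest genes (1.25). Between MUS and Control it was not called with either of these (1.11 and 1.19) or with fragment-total scaling (1.204). Calls were also gained there. Nrp1 was called lower with both other pseudocounts, quantile normalization, the rescaling, fragment-total scaling and voom (-1.62). Epas1 was called lower with the rescaling, fragment-total scaling and voom (-1.46). With fragment-total scaling 4 of the 9 were called lower between MUS and Control, among 1953 of all 9794 genes, against 873 as reported. Vegfa was called in MUS vs. Model when only the Model and MUS libraries were fitted and when either Control library was left out. Its fitted values were 2.74 to 3.25 over all 17 alternatives. Since Vegfa was chosen with this difference known, nothing is read from these calls.

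**Figure D4:**
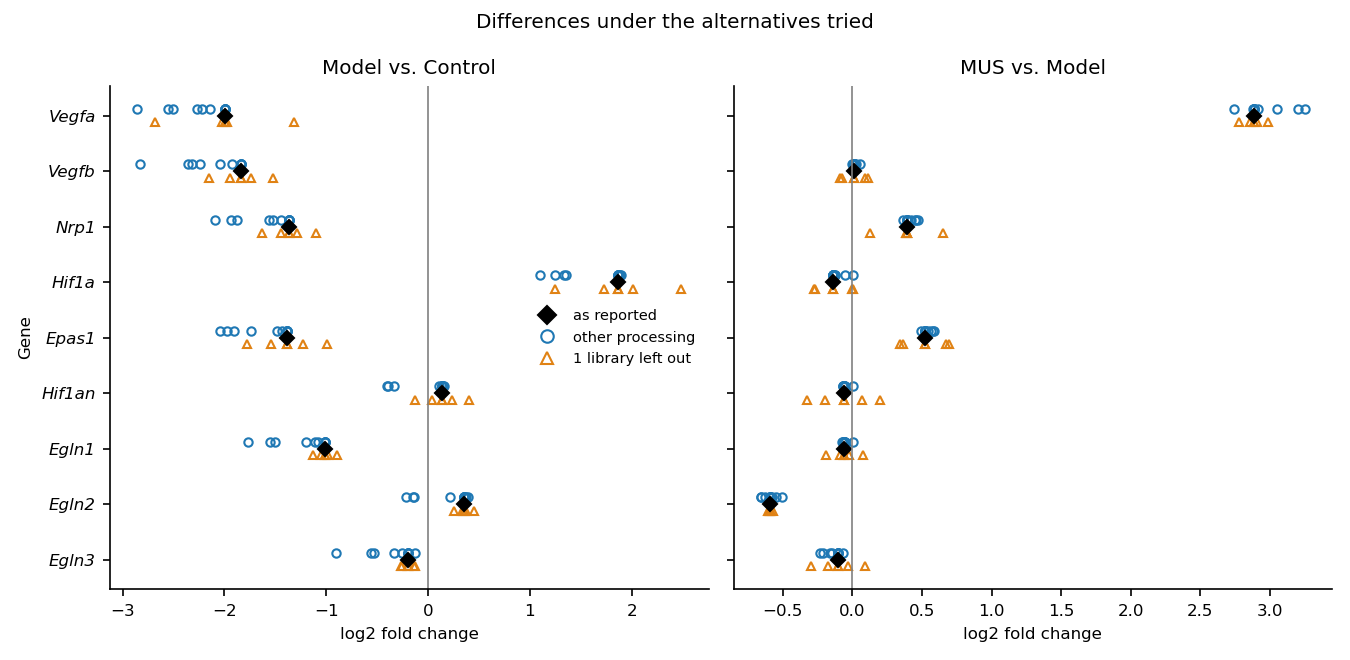
Fitted log2 fold changes (horizontal axes) of the 9 genes in Model vs. Control (left) and MUS vs. Model (right) as reported (diamonds), under other processing (circles) and with 1 library left out (triangles). Vegfa stays between 2.74 and 3.25 in MUS vs. Model, and the Model vs. Control values of Hif1an and Egln2 fall on both sides of 0.

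The scale of the deposited values bears on every comparison with Control. The library totals implied by the FPKM were 1.45 and 1.34 times the fragments on genes in the Control libraries, and 0.909 to 0.998 times in the treated libraries. Scaling by fragments on genes moved the median log2 fold change of all genes in Model vs. Control from 0.04 to -0.40. On that scale, Hif1a was 1.33, Vegfa -2.50, Vegfb -2.32, Epas1 -1.91, Nrp1 -1.87 and Egln1 -1.4998, and each kept its sign. The numbers of genes called higher and lower in Model vs. Control were 930 and 545 as deposited, 646 and 1554 with fragment-total scaling, and 707 and 715 with quantile normalization. In MUS vs. Control they were 1107 and 873, 738 and 1953, and 885 and 1102. In MUS vs. Model, fragment-total scaling left Vegfa at 2.88.

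Most other VEGF ligands and receptors were scarce. Of 6 genes, 2 had a mean of at least 1 FPKM, and neither was called in any comparison. Vegfc, a lymphatic growth factor gene, was at 1.23 and 1.73 FPKM in Control, 2.29 and 2.87 FPKM in Model, and 2.70 and 2.59 FPKM in MUS. Nrp2, the second neuropilin gene, was at 13.9 and 63.9 FPKM in Control, 52.5 and 85.1 FPKM in Model, and 94.9 and 93.7 FPKM in MUS. Its Model vs. Control difference of 1.13 ± 0.65 (SE) was not called (limma adjusted p = 0.264). It was 2.19 and called without Control replicate 2, and 0.07 without Control replicate 1. Control replicate 2 lay above Model replicate 1 for Nrp2, so the groups overlapped.

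Neuropilins also bind class 3 semaphorins together with plexins. Of 13 semaphorin and plexin genes, 3 were tested, and 1, Plxnd1, fell in Model vs. Control, where 5.56% of all genes were called lower. Plxnd1, which encodes a plexin receptor of vessels and macrophages, was at 30.3 and 35.9 FPKM in Control, 2.80 and 7.98 FPKM in Model, and 4.31 and 6.27 FPKM in MUS. It fell by 2.54 ± 0.41 (SE) on the log2 scale in Model vs. Control (limma adjusted p = 0.00955). Plxnd1 also fell by 2.45 in MUS vs. Control (limma adjusted p = 0.00848). It was called in both comparisons without either Control library, but not in MUS vs. Control without MUS replicate 1. With no filter on low values it was called in neither comparison. Plxna1, at -1.33 (limma adjusted p = 0.107), and Sema4a, at 1.32 (limma adjusted p = 0.114), were not called between Model and Control, though Plxna1 was called with fragment-total scaling (-1.86) and with the replicate block (limma adjusted p = 0.039). Sema4a was called without Control replicate 2 (2.10). The 3 genes had a median of -1.33, against 0.04 for all genes.

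Of 14 genes for other HIF subunits, coactivators and the degradation machinery, 11 were tested and 0 were called in any comparison, with 2 at an unadjusted p under 0.05 in Model vs. Control, 0 in MUS vs. Model and 3 in MUS vs. Control. With voom on the recovered fragments the counts called were 0 in each comparison as well. Rbx1, a RING subunit of the von Hippel-Lindau ligase, had the largest Model vs. Control difference, 1.12 ± 0.34 (SE; limma adjusted p = 0.0639). Its partner subunits Eloc and Cul2 were at 0.81 (limma adjusted p = 0.151) and 0.58 (limma adjusted p = 0.166). Cited2, whose product competes with HIF-α for its coactivators, was at 0.89 (limma adjusted p = 0.143). With the replicate block Cited2 was called in MUS vs. Control, where it was at 1.15 (limma adjusted p = 0.0614 without the block and 0.0356 with it). The median of the 11 was 0.26 in Model vs. Control and -0.01 in MUS vs. Model, against 0.04 and 0.01 for all genes.

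Of 38 further HIF target genes, 28 were tested. In Model vs. Control 6 rose, 2 fell and 20 were not called, where 9.5% of all genes were called higher and 5.56% lower. Their median log2 fold change was 0.32 against 0.04 for all genes, on the deposited scale. With other scalings more of them fell than rose, as given below. The genes that rose were Pfkfb3, Ccng2, Hk2, Adm, Ak4 and P4ha1, and those that fell were Bnip3l and Gpi1. In MUS vs. Model 0 of the 28 were called by limma, with 2 at an unadjusted p under 0.05 and 0 with voom, and their median was 0.02 against 0.01 for all genes. In MUS vs. Control 5 rose and 4 fell, where 11.3% of all genes were called higher and 8.91% lower.

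The glycolytic members of the list went both ways. Pfkfb3, whose product makes the allosteric activator of phosphofructokinase, was at 14.5 and 7.90 FPKM in Control, 40.6 and 79.3 FPKM in Model, and 51.5 and 63.3 FPKM in MUS, and rose by 2.30 ± 0.42 (SE) in Model vs. Control (limma adjusted p = 0.0136). Hk2, an inducible hexokinase gene, was at 7.88 and 12.9 FPKM in Control, 26.5 and 35.5 FPKM in Model, and 40.8 and 47.1 FPKM in MUS, and rose by 1.51 ± 0.32 (limma adjusted p = 0.0212). Gpi1, glucose-6-phosphate isomerase, was at 24.3 and 18.3 FPKM in Control, 8.06 and 10.5 FPKM in Model, and 7.36 and 9.53 FPKM in MUS, and fell by 1.11 ± 0.27 (limma adjusted p = 0.0326). Slc16a3, which encodes a lactate exporter, was called in MUS vs. Control, where it fell by 1.10 (limma adjusted p = 0.0138). In Model vs. Control it was at -0.46 (limma adjusted p = 0.187). Hk2 (1.19) and Gpi1 (-0.92) were not called in Model vs. Control without Control replicate 1, while Pfkfb3 (2.70) was. With fragment-total scaling Hk2 was at 1.01 and not called.

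The mitophagy receptor genes of the list were lower in the treated cells. Bnip3l was at 73.6 and 41.7 FPKM in Control, 18.6 and 14.4 FPKM in Model, and 19.8 and 18.5 FPKM in MUS, and fell by 1.70 ± 0.33 (SE) in Model vs. Control (limma adjusted p = 0.0174). Bnip3 was at 4.17 and 3.09 FPKM in Control, 1.60 and 1.51 FPKM in Model, and 1.02 and 1.44 FPKM in MUS. It was not called in Model vs. Control, at -0.85 (limma adjusted p = 0.0458), and fell by 1.05 in MUS vs. Control (limma adjusted p = 0.0189). Neither was called without Control replicate 1, with Bnip3l at -1.30 in Model vs. Control and Bnip3 at -0.88 in MUS vs. Control. Without Control replicate 2, Bnip3 was called in Model vs. Control (-1.02).

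P4ha1, a collagen prolyl hydroxylase gene, was at 9.15 and 9.69 FPKM in Control, 28.9 and 24.6 FPKM in Model, and 40.6 and 34.8 FPKM in MUS, and rose by 1.41 ± 0.25 (SE) in Model vs. Control (limma adjusted p = 0.012). Ccng2, a cyclin gene linked to growth arrest, rose by 1.70 ± 0.23 (limma adjusted p = 0.00577). Adm, the gene of the vasodilator adrenomedullin, rose by 1.51 ± 0.30 (limma adjusted p = 0.0183), from 2 and 14 fragments in Control to 69 and 48 in Model. Ak4, a mitochondrial adenylate kinase gene, rose by 1.48 ± 0.40 (limma adjusted p = 0.0472), from 0.565 and 2.83 FPKM in Control to 6.66 and 5.07 FPKM in Model. Of the 6 genes that rose, Ak4 was not called in MUS vs. Control (1.23, limma adjusted p = 0.0641). Ak4 (0.83) and Adm (1.31) were not called in Model vs. Control without Control replicate 1, while Ccng2 and P4ha1 were. Without Control replicate 2, Ak4 was at 2.12. P4ha1 was not called with fragment-total scaling (0.90).

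**Figure D5:**
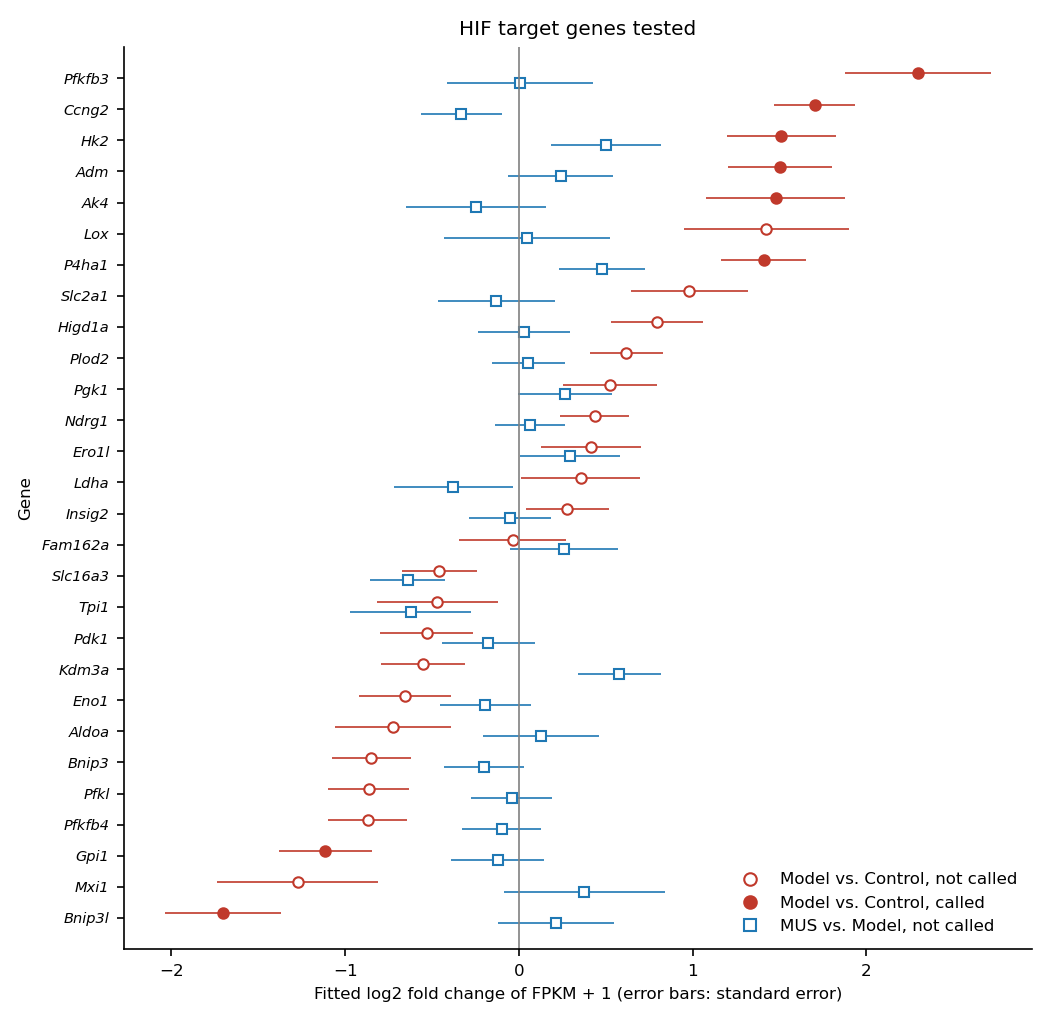
Fitted log2 fold changes of FPKM + 1 (horizontal axis, bars are standard errors) of the 28 HIF target genes tested, in Model vs. Control (circles) and MUS vs. Model (squares), filled where called. Pfkfb3 at 2.30 and Bnip3l at -1.70 mark the ends in Model vs. Control, and no square is filled.

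With the replicate block Lox, which encodes a collagen crosslinking enzyme, was called as well, at 1.42 in Model vs. Control (limma adjusted p = 0.0484 with the block). Lox was at 0.61 without Control replicate 1, and at 2.24 and called without Control replicate 2. The split of the HIF targets depended on the scale and on single libraries, as did the numbers of all genes called higher and lower. With fragment-total scaling 3 rose and 9 fell in Model vs. Control, and with voom 4 rose and 11 fell, and in MUS vs. Control 4 rose and 10 fell with fragment-total scaling. The 8 calls in Model vs. Control became 1 with no filter on low values, 4 with only the 2 groups compared, 3 without Control replicate 1, 12 without Control replicate 2, 2 without Model replicate 1, 4 without Model replicate 2 and 4 without either MUS library. The 9 calls in MUS vs. Control became 2 with no filter, 14 without Control replicate 2, 2 without MUS replicate 2 and 0 (limma) without MUS replicate 1, where 11 were at an unadjusted p under 0.05.

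The genes most like Vegfa were ranked by the root mean square difference of log2(FPKM + 1), centred on each gene's mean, over the 6 libraries and 8648 protein-coding genes. Rpl7a, a ribosomal protein gene, came first at 0.38, followed by Sh3bgrl3 at 0.71, Mrps21 at 0.78, Akip1 at 0.80 and Rgs2 at 0.82. Rpl7a was at 21.1 and 11.6 FPKM in Control, 1.67 and 2.90 FPKM in Model, and 18.1 and 28.6 FPKM in MUS. Ribosomal protein genes share sequence with many pseudogenes, so the counting of Rpl7a is uncertain.

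By the same measure the genes nearest to Hif1a lay closer to it. Gpr85 came first at 0.08, followed by Stx11 at 0.10, Tfec and Ttc39c at 0.11 and 0.12, and Ctsc at 0.12. Stx11, a syntaxin gene, was at 7.79 and 17.4 FPKM in Control, 43.9 and 36.0 FPKM in Model, and 45.1 and 38.2 FPKM in MUS. Tfec, a transcription factor gene of macrophages, was at 1.58 and 6.85 FPKM in Control, 16.7 and 14.2 FPKM in Model, and 15.4 and 13.6 FPKM in MUS. Like Hif1a, both were higher in Control replicate 2 than in Control replicate 1.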

How the data were processed

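RNA-seq of mouse peritoneal macrophages was analysed in 6 libraries, with groups taken from the labels. The authors deposited FPKM values per gene, normalized by length and library total. The submitters' processing notes name HISAT2, featureCounts 1.5.0-p3 and GRCm39, whereas the study's methods name RSEM. Gene positions in the table equal those of GENCODE M21 on GRCm38 for 98.3% of 54409 identifiers, so coordinates are given as GRCm38. The library kit is not stated to keep strand.

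FPKM times gene length gave whole fragments (within 0.1) for 100% of values, which served for depth and for limma's voom as an alternative. Genes with a mean of at least 1 FPKM (9794) were tested on log2(FPKM + 1), so fold changes of low genes are understated. limma 3.58.1 (R 4.3.3; moderated linear model with trend, two-sided, Benjamini-Hochberg) fitted all 6 libraries in 1 model of 3 groups with 3 residual degrees of freedom. A gene was called where its adjusted p was no higher than 0.05 and its log2 fold change lay beyond 1 in either direction. The fitting step was tested on simulated data. A minimum number of recovered calls was required only at a spread smaller than that of the libraries.

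Members and gene lists were chosen with earlier results of these data known. 1 HIF target gene of the lists is not reported here. Named list genes are all those called in any comparison, filled up to 4 by the size of the Model vs. Control difference, with the 5 genes most like Vegfa and Hif1a, and Il1b, Tnf and Nlrp3. The labels' batch equals the replicate number and so pairs the libraries. The replicate differences had r = 0.12 between Control and Model, 0.14 between Model and MUS and -0.09 between Control and MUS over 9794 genes. Replicates had r = 0.924, 0.944 and 0.981 in Control, Model and MUS. Alternatives were pseudocounts, filters, 2-group fits, the replicate block, no trend, other scalings, voom and leaving out each library. Promoter windows and their matches used RefSeq sequences on GRCm38.p6.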

Additional observations from a re-analysis of the deposited data

How the results depend on the processing

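Genes called in Model vs. Control numbered 1475 and moved beyond 1.5 times with no filter on low values (260), only the 2 groups compared (797), rescaling without mitochondrial and the 20 highest genes (2374) and voom (2734), and ranged from 692 to 2077 with 1 library left out. In MUS vs. Model the 0 genes called became 1 with a pseudocount of 0.1, 7 with only the 2 groups and 4 with the replicate block, which changed no call of the 9 genes fitted and, of the list genes, those of Cited2, Lox, Plxna1 and Jag1 given elsewhere. Leaving out 1 library gave 0 to 31, the highest without Model replicate 2. In MUS vs. Control 1980 became 456 with no filter and 3144 with voom, and ranged from 184, without MUS replicate 1, to 2398 with 1 library left out. In the fits that leave a group with 1 library, that library is assumed to vary like the others. The cause was not tested, except that no filter tests more genes (30192).

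Of 450 values of the 9 genes under alternatives, 362 moved by less than the residual SD and 88 moved further, and no called gene changed sign. With rescaling and voom, the split of genes called higher and lower in Model vs. Control was 584 to 1790 and 684 to 2050, and in MUS vs. Control 721 to 1968 and 758 to 2386. Having 2 libraries in each group limits detection, as do the 29 to 89 fragments of Egln3.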

Other observations

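Angiogenic factors outside the VEGF family were also measured. Of 16 genes, 7 were tested, and in Model vs. Control Thbs1 rose, Pdgfb fell and 5 were not called. Of all genes, 9.5% were called higher and 5.56% lower there. The median log2 fold change of the 7 was -0.60 against 0.04 for all genes. Thbs1, which encodes the angiogenesis inhibitor thrombospondin-1, was at 90.0 and 48.8 FPKM in Control, 334 and 399 FPKM in Model, and 589 and 573 FPKM in MUS. It rose by 2.44 ± 0.39 (SE) on the log2 scale in Model vs. Control (limma adjusted p = 0.00907). It also rose by 3.11 in MUS vs. Control (limma adjusted p = 0.00367). The Model vs. Control value was 2.88 without Control replicate 1 and 2.01 without Control replicate 2, called in both. Both MUS libraries lay above both Model libraries, a difference of 0.67 ± 0.39 that was not called (limma adjusted p = 0.721).

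Pdgfb, a growth factor gene for pericytes, was at 7.66 and 10.7 FPKM in Control, 4.29 and 3.27 FPKM in Model, and 1.61 and 2.47 FPKM in MUS. It fell by 1.08 ± 0.26 (SE) in Model vs. Control (limma adjusted p = 0.0323). It also fell by 1.74 in MUS vs. Control (limma adjusted p = 0.00583). Its Model vs. Control value was -1.30 without Control replicate 1 and -0.87 without Control replicate 2, and was called in neither. Neither Thbs1 nor Pdgfb was called in MUS vs. Control without MUS replicate 1, or in Model vs. Control with no filter on low values. Jag1, a Notch ligand gene, was at 1.497 (limma adjusted p = 0.0511), and Hgf, the hepatocyte growth factor gene, at -0.95 (limma adjusted p = 0.172) in Model vs. Control. With the replicate block Jag1 was called (limma adjusted p = 0.0298). Jag1 (2.09) and Hgf (-1.59) were both called without Control replicate 2. With fragment-total scaling 1 of the 7 rose and 3 fell in that comparison.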
